A study of Mus musculus with 6 samples.

Results

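The myeloid C-type lectin receptors are pattern recognition receptors on macrophages and other phagocytes, several of which bind the cell wall of *Candida albicans*. The transcripts of 9 of these receptor genes were followed here in macrophages with and without progranulin (PGRN), the secreted glycoprotein encoded by Grn: Clec4n, Clec4d, Clec4e, Clec7a, Clec5a, Clec12a, Clec4a1, Clec4a2 and Clec4a3. They were chosen by name from the 54532 genes of the deposited RNA sequencing table, with every gene biotype kept because Clec7a is listed there as a polymorphic pseudogene. All 9 were found, and all 9 were among the 8882 genes with a mean of at least 1 FPKM that were tested. FPKM gives the sequenced fragments of a gene scaled to the length of its gene model and to the size of the library. Each receptor had a mean of at least 1 FPKM in both genotypes.

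The wild type (WT) group held 3 libraries, replicates 1, 2 and 3, and the PGRN KO group, of mice with a progranulin knockout, held 3 libraries, replicates 4, 5 and 6. Both groups were C57BL/6J macrophages that the labels give as coming from the peritoneal cavity. In both, 2000000 cells per well met live *C. albicans* at 1 fungal cell per macrophage for 6 h, and no unchallenged library was analysed here. The study's text describes the sequenced cells as derived from bone marrow and gives another ratio of fungus to cells, so that neither source nor dose is settled, and the labels were followed. Nothing in the sources says whether the replicates came from separate animals or cultures, and p-values therefore measure the spread between these libraries, which may be technical.

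Fungal cell wall sugars reach these receptors in different ways. Dectin-1 (Clec7a) binds beta-glucan and carries its own signalling motif. Dectin-2 (Clec4n), which binds mannan, and its relatives Mincle (Clec4e) and MCL (Clec4d) have short cytoplasmic tails and signal through the Fc receptor gamma chain (Fcer1g), and MDL-1 (Clec5a) signals through DAP12 (Tyrobp). These routes meet at the kinase Syk and at the Card9, Bcl10 and Malt1 complex, which leads to NF-kB and to cytokine genes. DCIR (Clec4a2) and MICL (Clec12a) are inhibitory receptors with a motif that recruits phosphatases, and Clec4a1 and Clec4a3 are mouse paralogues of Clec4a2.

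Grn checked the labels. It was at 323, 337 and 325 FPKM in the WT libraries and at 0.0166, 0 and 0.0167 FPKM in the PGRN KO libraries, which were 1, 0 and 1 fragments. All 8 macrophage markers were detected, among them Lyz2, Cd14, Cd68, Adgre1 and Csf1r, and their summed level was 11618 to 12561 FPKM in WT compared with 10445 to 14377 FPKM in PGRN KO. Of the markers of large peritoneal macrophages, Gata6 was at 3.78 to 4.26 FPKM in WT compared with 3.84 to 5.07 FPKM in PGRN KO. Timd4, Selp and Alox15 of the same list were at most at 0.204 FPKM in any library and were not tested. The libraries held 15996786 to 17551619 counted fragments. PGRN KO replicate 6 stood apart: against the mean of PGRN KO replicates 4 and 5 its FPKM had a median ratio of 1.34 over 2038 tested genes with gene models under 2000 bases, 1.16 over 2546 genes of 2000 to 4000 bases and 0.864 over 4294 longer genes, whereas the same medians for WT replicate 3 against WT replicates 1 and 2 were 0.979 to 0.997. Results on the receptors are therefore given with and without this library where it changes them.

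In PGRN KO macrophages 5 of the 9 receptor genes were lower and none was higher, since none of the 9 had a fold change above 0. The 5 were Clec4a2, Clec12a, Clec4a1, Clec5a and Clec4a3, whose mean FPKM in PGRN KO was 22.8%, 33.4%, 34.3%, 44.6% and 54.2% of that in WT. The 4 that did not pass the test were the fungal receptors of the highest levels, Clec4d, Clec4e, Clec7a and Clec4n, at 86.6%, 86.5%, 98.1% and 89.8% of WT. Genotypes were compared with limma on log2(FPKM + 1) over all tested genes with Benjamini-Hochberg adjustment and a threshold of 0.05. Among all tested genes this called 24.2%, with 13.8% lower and 10.4% higher in PGRN KO. The receptors had a median log2 fold change of -0.61, and all tested genes had one of -0.03. The highest PGRN KO library lay below the lowest WT library in 6 of the 9 receptors (the 5 called genes and Clec4e), against 27.6% of all tested genes. In bulk samples, fewer cells of a type and less RNA per cell cannot be told apart.

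**Figure D1:**
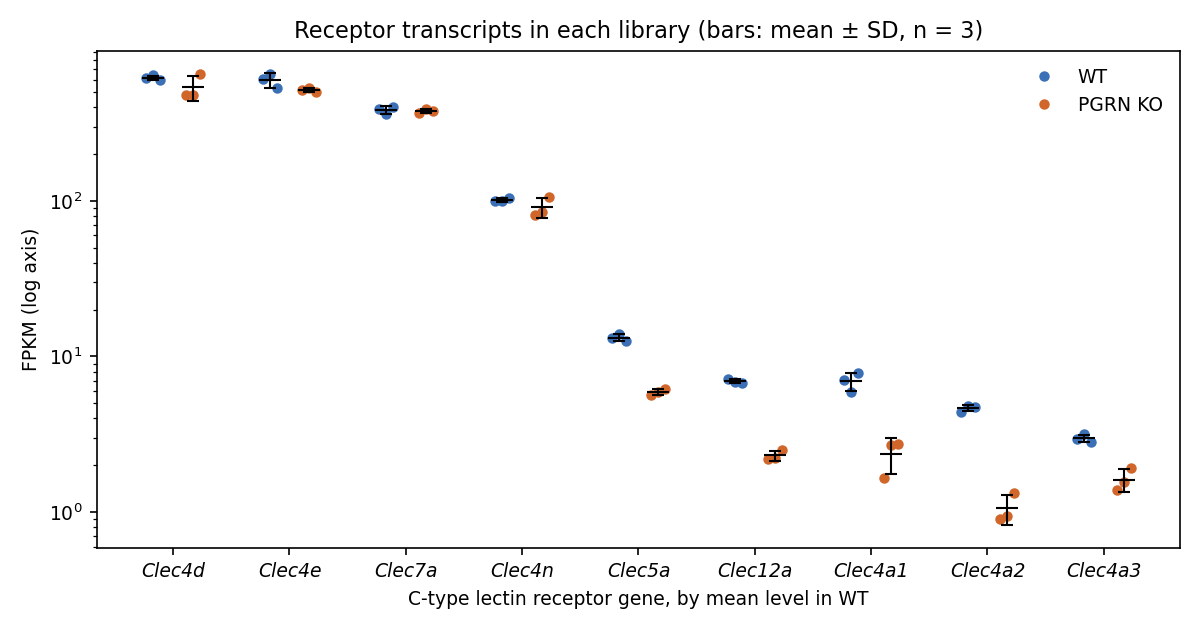
FPKM of the 9 receptor genes on a log axis, ordered by their mean in WT, with 1 point per library and bars for the mean ± SD (n = 3). The 4 genes on the left, at 81.6 FPKM and above in every library, have groups that overlap or nearly touch, whereas in the 5 on the right every PGRN KO library lies below every WT library.

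Clec4a2, Clec12a and Clec4a1, the inhibitory receptors and a paralogue of Clec4a2, fell the furthest of the 9. Clec4a2 was at 4.41, 4.78 and 4.74 FPKM in WT and at 0.908, 0.939 and 1.32 FPKM in PGRN KO, a mean of 4.64 ± 0.202 against 1.06 ± 0.232 FPKM (SD, n = 3 each). Its log2 fold change was -1.46 ± 0.109 (SE; limma adjusted p 0.00119). This value is on the log2(FPKM + 1) scale, which understates the change of genes at a few FPKM, and the plain ratio of the means was 4.39-fold. The gene had 207 to 250 fragments per WT library and 46 to 67 per PGRN KO library.

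Clec12a, the other inhibitory receptor, was at 7.20, 6.86 and 6.77 FPKM in WT and at 2.20, 2.24 and 2.51 FPKM in PGRN KO. The groups were narrow and far apart, with means of 6.94 ± 0.228 and 2.32 ± 0.169 FPKM. The log2 fold change was -1.26 ± 0.0859 (limma adjusted p 0.00119), and the mean in PGRN KO was 66.6% lower.

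Clec4a1 was at 7.06, 5.95 and 7.79 FPKM in WT and at 1.67, 2.71 and 2.75 FPKM in PGRN KO. It varied more between replicates than the other 4, with an SD of 0.929 FPKM among WT and 0.614 FPKM among PGRN KO libraries, but its groups did not overlap. Its log2 fold change was -1.24 ± 0.163 (limma adjusted p 0.00388). Clec4a3, the member of lowest level in WT, was at 2.97, 3.16 and 2.84 FPKM in WT and at 1.39, 1.55 and 1.92 FPKM in PGRN KO. Its log2 fold change of -0.61 ± 0.106 (limma adjusted p 0.00922) was the smallest of the 5 and rested on 32 to 68 fragments per library, so that counting error is largest for this gene.

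The DAP12-coupled receptor fell too. Clec5a was at 13.1, 13.96 and 12.6 FPKM in WT and at 5.67, 5.87 and 6.18 FPKM in PGRN KO. The groups were far apart, with 6.18 FPKM in the highest PGRN KO library against 12.6 FPKM in the lowest WT library. The log2 fold change was -1.04 ± 0.0843 (limma adjusted p 0.00119), with 377 to 876 fragments per library. The summed FPKM of the 5 lower genes was 34.7 to 34.8 in the WT libraries and 11.8 to 14.7 in the PGRN KO libraries.

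The 4 receptors of fungal ligands that did not pass made up most of the family's transcripts. Clec4d, Clec4e and Clec7a together held 91.7% to 93.6% of the summed FPKM of the 9 genes in every library. That sum was 1672 to 1788 FPKM in WT compared with 1454 to 1653 FPKM in PGRN KO.

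Clec7a, encoding Dectin-1, was at 390, 359 and 402 FPKM in WT and at 367, 386 and 377 FPKM in PGRN KO. All PGRN KO values lay within the range of the WT values. The log2 fold change was -0.03 with a 95% interval from -0.25 to 0.19 (limma adjusted p 0.854), and its sign turned with the scaling, to 0.03 on the TPM scale, 0.08 with quantile normalization and 0.07 with fragment totals as library sizes.

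Clec4n, encoding Dectin-2, was at 100.2, 99.6 and 105 FPKM in WT and at 81.6, 85.3 and 107 FPKM in PGRN KO. PGRN KO replicates 4 and 5 lay below every WT library and replicate 6 lay above every one. The log2 fold change was -0.16 with a 95% interval from -0.45 to 0.12 (limma adjusted p 0.348), and without replicate 6 it was -0.28 (limma adjusted p 0.00772). Clec4d, encoding MCL, had the same arrangement, at 614, 639 and 601 FPKM in WT and at 479, 475 and 652 FPKM in PGRN KO. Its log2 fold change was -0.22 with a 95% interval from -0.56 to 0.12 (limma adjusted p 0.293), and without replicate 6 it was -0.37 (limma adjusted p 0.00332). Without that library 7 of the 9 receptors were thus lower, against 25.1% of all tested genes in the same comparison. With all libraries kept, the log2 fold change of Clec4n was -0.11 on the TPM scale and -0.06 with fragment totals as library sizes. That of Clec4d was -0.17 and -0.12, and none of these passed (limma adjusted p 0.191 to 0.704). These scalings were not run without replicate 6.

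Clec4e, encoding Mincle, was at 602, 655 and 529 FPKM in WT and at 514, 529 and 503 FPKM in PGRN KO. The groups nearly touched, with 529.4 FPKM in the lowest WT library and 528.8 FPKM in the highest PGRN KO library. The log2 fold change was -0.20 with a 95% interval from -0.47 to 0.06 (limma adjusted p 0.219), and without replicate 6 it was -0.19 (limma adjusted p 0.164).

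**Figure D2:**
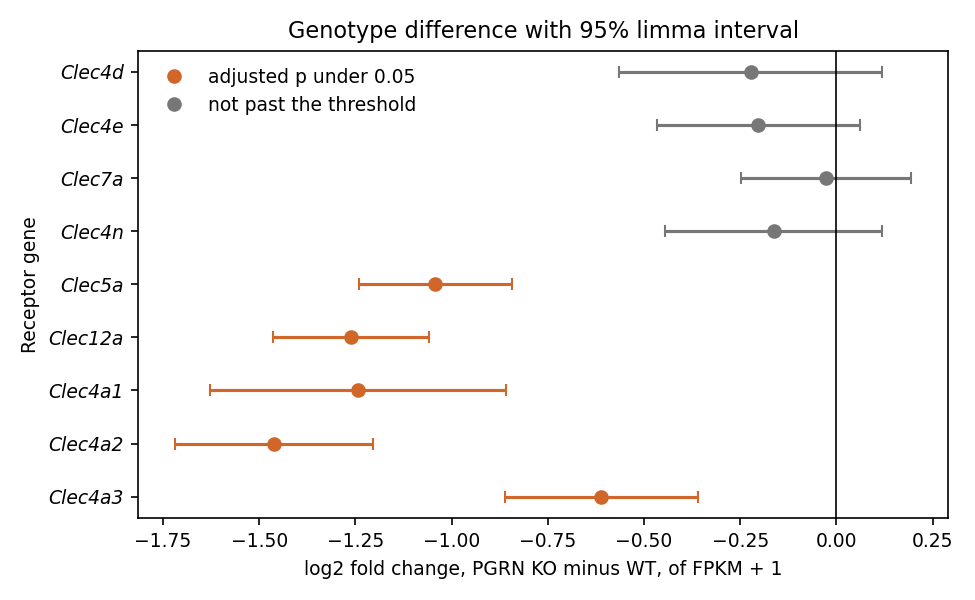
Log2 fold change of FPKM + 1, PGRN KO minus WT, for each receptor, with the 95% interval of limma. The intervals of the 5 called genes end at -0.36 or lower, and those of Clec4d, Clec4e, Clec7a and Clec4n include 0.

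The place of replicate 6 differed between the receptors. Its FPKM was 1.44, 1.37, 1.30, 1.28 and 1.25 times the mean of replicates 4 and 5 for Clec4a2, Clec4d, Clec4a3, Clec4n and Clec4a1, which have gene models of 2926, 1599, 1327, 1420 and 1558 bases. For Clec12a, Clec5a, Clec7a and Clec4e, with gene models of 5528, 3840, 2638 and 4965 bases, it was 1.13, 1.07, 1.00 and 0.964 times that mean. The 4 genes under 2000 bases were thus near the median ratio given above for tested genes of that length. Clec4a2, Clec12a and Clec4e exceeded the medians of their own length classes, whereas Clec5a and Clec7a lay below theirs.

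**Figure D3:**
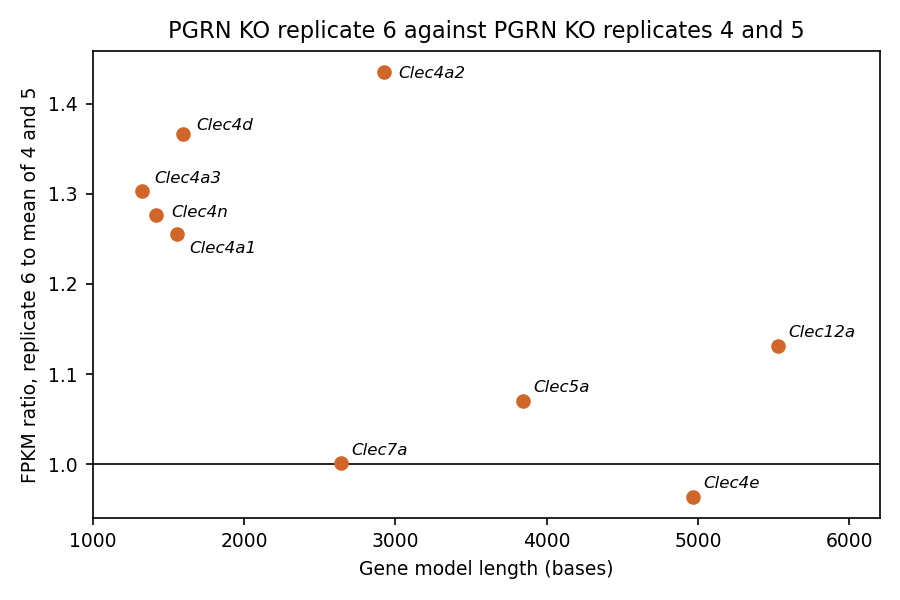
FPKM in PGRN KO replicate 6 divided by the mean of PGRN KO replicates 4 and 5, against the length of the gene model in bases, with 1 point per receptor. The 4 shortest genes lie at 1.25 to 1.37, Clec4a2 at 1.44, and the other 4 at 0.964 to 1.13.

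Ratios within a library, which do not depend on the scaling between libraries, set Dectin-2 against the other fungal receptors. The Clec4n to Clec7a ratio of FPKM was 0.257, 0.277 and 0.261 in WT and 0.222, 0.221 and 0.283 in PGRN KO (log2 difference -0.14; exact two-sided permutation test, p = 0.4), and the log2 difference was -0.25 without PGRN KO replicate 6, -0.082 without replicate 4 and -0.078 without replicate 5. The Clec4n to Clec4d ratio was 0.164 ± 0.00934 in WT and 0.171 ± 0.00821 in PGRN KO, and the Clec4n to Clec4e ratio was 0.172 ± 0.0234 and 0.177 ± 0.0300 (exact permutation p = 0.4 and 0.7). The groups overlapped in all 3 ratios. The smallest p that 3 against 3 libraries allow is 0.1, so that none of these tests could pass.

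The order of the levels, per length of gene model, was nearly shared by the genotypes. In WT it ran from Clec4d (618 FPKM) through Clec4e (595), Clec7a (384), Clec4n (102), Clec5a (13.2), Clec12a (6.94), Clec4a1 (6.93) and Clec4a2 (4.64) to Clec4a3 (2.99). Clec4d and Clec4e, and Clec12a and Clec4a1, did not differ beyond their spread in either genotype. Clec4a2 lay above Clec4a3 in all 3 WT libraries and below it in all 3 PGRN KO libraries, with 1.06 ± 0.232 against 1.62 ± 0.270 FPKM in PGRN KO.

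The receptor genes lie on chromosome 6 (GRCm38). Clec4a1, Clec4a3, Clec4a2, Clec4n, Clec4d and Clec4e are neighbours within 368023 bases (chr6:122921848-123289870), and this run holds both lower and uncalled receptors: the first 3 in that order passed, the next 3 did not. Clec12a and Clec7a share a stretch of 130089 bases (chr6:129342691-129472779), with 1 called and 1 not. Clec5a lies apart at chr6:40574894-40585821. The 12 other genes within the shared stretches were all untested, with at most 0.194 FPKM in any library and 7 of them at 0 in every library. No receptor's exons overlapped those of another gene in the GENCODE annotation. Of the 31-base words of the receptors' transcripts, 10.9% of those of Clec4a2 also occurred in transcripts of another gene, 4.96% in Clec4a4. Reads could therefore be confused between these paralogues, which was not tested. Clec4a4 was at 0.154 FPKM or less in every library. For the other 8 receptors the share of words that also occurred in another gene was at most 2.19%.

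Because 5 receptors were lower together, their promoters were read from RefSeq (GRCm38.p6), from 250 bases before to 50 after the start, and matched for 8 of the 9 genes. PU.1 is the transcription factor that marks the myeloid lineage, and its core GAGGAA was searched on both strands. It occurred in the promoters of 4 of the 5 lower genes, all but Clec4a2, and in those of the 3 matched genes that did not pass, against 28.3% of 32851 promoters of the same length. Clec4a3 and Clec7a each have 2 annotated starts, and counted by promoter the word was in 8 of 10. The word therefore did not separate the lower receptors from the others. The stretches below are shown so that the sites can be compared. They run from 20 bases before the first to 20 after the last core upstream of the start, or from the edge of the window in Clec4d, 5′ to 3′ on the gene's strand, with GAGGAA or its complement TTCCTC in capitals.
Clec4a1 (chr6:122921611-122921686, plus strand): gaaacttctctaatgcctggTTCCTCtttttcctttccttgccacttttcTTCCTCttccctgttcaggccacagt
Clec4a3 (chr6:122952574-122952619, plus strand): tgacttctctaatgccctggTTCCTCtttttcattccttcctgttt
Clec5a (chr6:40585835-40585906, minus strand): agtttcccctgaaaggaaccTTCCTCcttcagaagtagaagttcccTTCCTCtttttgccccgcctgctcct
Clec12a (chr6:129350163-129350222, plus strand): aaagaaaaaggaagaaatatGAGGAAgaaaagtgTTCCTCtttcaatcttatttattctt
Clec4e (chr6:123289902-123290014, minus strand): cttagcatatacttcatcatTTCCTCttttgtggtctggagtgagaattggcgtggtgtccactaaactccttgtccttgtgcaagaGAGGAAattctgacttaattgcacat
Clec7a (chr6:129472850-129472895, minus strand): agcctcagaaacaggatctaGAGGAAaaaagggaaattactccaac
Clec4d (chr6:123261857-123261892, plus strand): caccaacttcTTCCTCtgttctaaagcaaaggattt
A pair of cores lies upstream in 3 of the lower genes, at positions -81 and -55 from the start in Clec5a, -61 and -47 in Clec12a and -217 and -187 in Clec4a1, and also in the uncalled Clec4e, at -123 and -56. Clec4d has 1 upstream, at -240, and others after the start. The stretches of the paralogues Clec4a1 and Clec4a3 share an identical run of 17 bases, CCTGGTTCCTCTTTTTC, the longest run that any of the receptors' promoters had in common, at different distances from their starts (cores at positions -217 and -50).

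Another 4 motifs were searched on both strands of the same windows, where the only overlapping matches were 1 pair in Clec4d. AP-1 (TGANTCA) occurred in 2 of the 5 lower and 0 of the 3 other receptors, against 7.81% of all promoters. C/EBP (TTNNGCAA) occurred in 1 and 1, against 10.8%, the interferon response element (GAAA, any 2 letters, GAAA) in 0 and 1, against 3.44%, and NF-kB (GGGA, any 2 letters, TTCC) in 0 and 0, against 1.47%. A match is a description of letters, not of binding. The RefSeq starts of Clec4a2 and Clec12a lie 16262 and 7553 bases inside the gene start of the deposited table.

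Of the signalling genes that carry these receptors' signals, 23 of 24 were tested, 6 were lower and 2 were higher in PGRN KO, with a median log2 fold change of -0.14. Among all tested genes, 13.8% were lower and 10.4% were higher. The adaptors that couple to the receptors, Fcer1g and Tyrobp, were not among the called signalling genes. Fcer1g, the partner of Dectin-2 and Mincle, was at 690, 705 and 658 FPKM in WT and at 680, 651 and 916 FPKM in PGRN KO (log2 difference 0.11, limma adjusted p 0.605). Tyrobp, the partner of Clec5a, was at 403, 412 and 427 FPKM in WT and at 412, 409 and 644 FPKM in PGRN KO (0.20, adjusted p 0.450). In both adaptors PGRN KO replicate 6 was the highest of all libraries, and without it the log2 fold changes were -0.04 and -0.01.

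Syk, the kinase shared by these receptors, was at 87.9, 89.4 and 88.0 FPKM in WT and at 67.8, 68.3 and 54.0 FPKM in PGRN KO. All PGRN KO libraries lay below the WT libraries, and the log2 difference was -0.48 ± 0.113 (limma adjusted p 0.0239). Syk no longer passed on the TPM scale (adjusted p 0.121), with quantile normalization (0.0652) or with fragment totals as library sizes (0.0776). Card9, its downstream adaptor, was at 5.68, 6.34 and 6.48 FPKM in WT and at 4.86, 5.94 and 7.19 FPKM in PGRN KO, with overlapping groups (log2 difference -0.05, adjusted p 0.826).

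The exchange factor Vav1 changed the most in this list. It was at 55.4, 53.8 and 58.0 FPKM in WT and at 25.2, 24.6 and 28.0 FPKM in PGRN KO (log2 difference -1.08 ± 0.0889, limma adjusted p 0.00119). Plcg2, the phospholipase downstream of Syk, and Bcl10, the partner of Card9, also fell, by 0.72 and 0.49 on the log2 scale (limma adjusted p 0.00309 and 0.00785). Vav3 (-0.56, adjusted p 0.0405) and Vav2 (-0.40, adjusted p 0.0345) passed less clearly, and Vav2, with a mean of 0.836 FPKM in PGRN KO, entered the test through its WT level. Ptpn6, encoding the phosphatase SHP-1 that inhibitory receptors recruit, was at 20.4, 19.6 and 20.9 FPKM in WT and at 26.6, 25.4 and 36.4 FPKM in PGRN KO (0.50, adjusted p 0.0428), and Btk, a kinase downstream of Syk, rose by 0.29 (adjusted p 0.0373). Vav1, Plcg2 and Bcl10 passed under every alternative analysis, whereas the others lost their call in 5 to 9 alternatives.

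**Figure D4:**
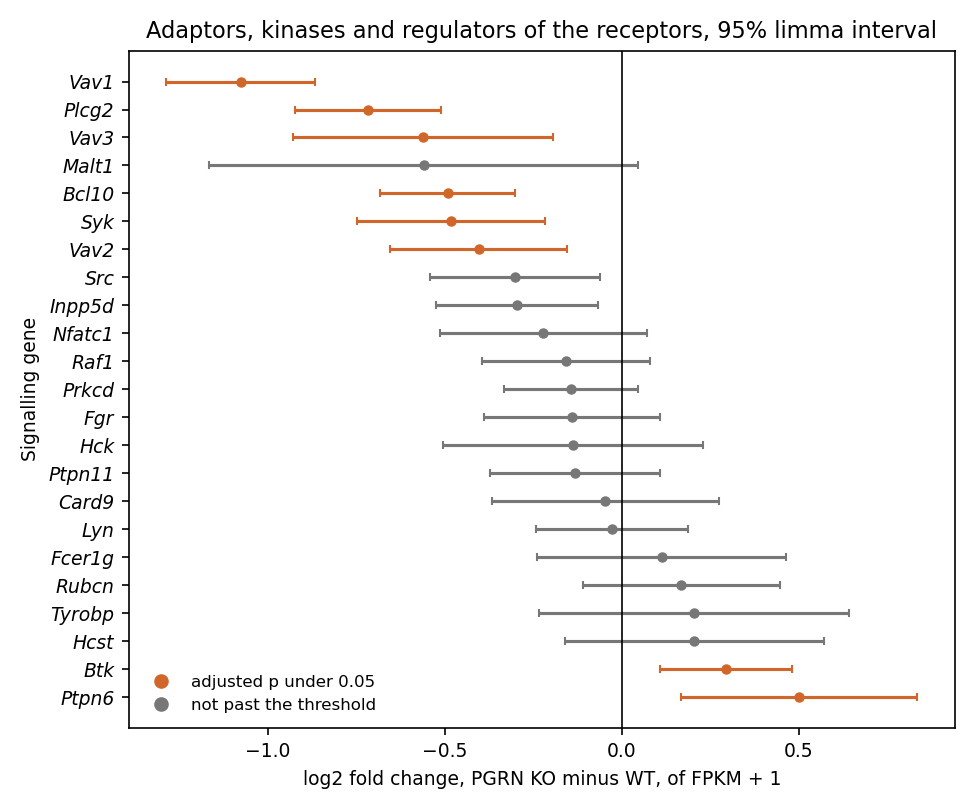
Log2 fold change of FPKM + 1, PGRN KO minus WT, of the 23 tested adaptors, kinases and regulators, with the 95% interval of limma. Coloured points passed the threshold: 6 lower, led by Vav1 at -1.08, and 2 higher, Btk at 0.29 and Ptpn6 at 0.50.

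Other C-type lectin genes moved in both directions. Of 31 listed, 12 were tested, 3 were lower and 2 higher, and 9 were at 0 in every library. The median log2 fold change was -0.23. Cd69, an early activation lectin of leukocytes, was at 3.89, 4.18 and 3.01 FPKM in WT and at 19.3, 13.2 and 21.6 FPKM in PGRN KO, a log2 difference of 2.00 ± 0.191 (limma adjusted p 0.00150), against the direction of the 5 lower receptors. The galactose-type lectins, which are close paralogues, went opposite ways: Mgl2 was at 5.37, 5.49 and 5.61 FPKM in WT and at 8.33, 9.23 and 11.9 FPKM in PGRN KO (0.72, adjusted p 0.0102), and Clec10a was at 2.52, 2.85 and 2.60 FPKM in WT and at 0.836, 1.02 and 1.02 FPKM in PGRN KO (-0.90, adjusted p 0.00201). Thbd, encoding thrombomodulin, and Cd72, an inhibitory lectin best known from B cells, fell by 1.25 and 0.86 on the log2 scale (adjusted p 0.0123 and 0.00345). Mgl2 and Thbd lost their calls without WT replicate 1 (adjusted p 0.0528 and 0.0566), and the other 3 passed in every alternative that tested them. Clec10a and Cd72 had means of 0.958 and 0.898 FPKM in PGRN KO and entered the test through WT.

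Of 14 cytokine, chemokine and early response genes known to be induced through Dectin-1 or Dectin-2, all 14 were tested, 5 were lower by limma, and none was higher, also at an unadjusted p under 0.05, with a median log2 fold change of -0.45. Among all tested genes, 13.8% were lower and 10.4% were higher. The Egr factors were among the 5, with Egr2 at 117, 114 and 122 FPKM in WT and at 66.6, 73.1 and 60.4 FPKM in PGRN KO (-0.81, limma adjusted p 0.00324) and Egr3 lower by a log2 fold change of -0.41 (adjusted p 0.0266). Il10, encoding the anti-inflammatory cytokine, was at 229, 289 and 176 FPKM in WT and at 75.1, 68.0 and 88.6 FPKM in PGRN KO (-1.55 ± 0.194, adjusted p 0.00340). Ptgs2, the inducible cyclooxygenase, and Nlrp3, the inflammasome sensor, fell by 0.78 and 0.68 on the log2 scale (adjusted p 0.0392 and 0.0253). Il10 and Egr2 passed under every alternative, and the other 3 lost their call in 5 to 8. These genes respond to other stimuli too, and no library of cells without *C. albicans* was analysed here.

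Markers of other cells moved with genotype beside these receptors, several of which are also known from monocytes, neutrophils and dendritic cells. Of 12 neutrophil markers, Ly6g, Cxcr2 and Elane were at 0 in every library and S100a9 was at most at 0.443 FPKM. The summed level of the list was 80.2 to 87.2 FPKM in WT compared with 53.0 to 54.5 FPKM in PGRN KO, nearly all from S100a8, Mmp8 and Csf3r. Of these S100a8 was lower, with a mean of 49.98 FPKM in WT against 23.3 FPKM in PGRN KO (limma adjusted p 0.00142), whereas Mmp8, at 20.2 and 19.5 FPKM, and Csf3r, at 12.9 and 10.2 FPKM, did not pass (adjusted p 0.717 and 0.0887). The 6 dendritic cell markers summed to 52.0 to 60.8 FPKM in WT compared with 35.3 to 39.0 FPKM in PGRN KO, nearly all from Ccr7 and Itgax. The others were too low for testing and did not move together. Xcr1 and Flt3 were lower in every PGRN KO library than in any WT library. Zbtb46 went the other way, at 0.583, 0.532 and 0.534 FPKM in WT and at 0.760, 0.764 and 0.571 FPKM in PGRN KO. The 5 monocyte markers summed to 1298 to 1409 FPKM in WT compared with 2186 to 2579 FPKM in PGRN KO, almost all Chil3, whereas Ly6c2 was at 12.7, 11.6 and 11.7 FPKM in WT and at 3.01, 3.47 and 3.70 FPKM in PGRN KO. The part of such cells in the lower receptor levels was not tested.

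The summed levels of lymphoid and mast cell markers went the other way. The 6 B cell markers summed to 4.79 to 6.08 FPKM in WT compared with 19.0 to 24.1 FPKM in PGRN KO, the 6 mast cell markers to 2.29 to 3.19 and 9.72 to 13.99 FPKM, and the 6 T and NK cell markers to 0.780 to 1.24 and 1.87 to 2.33 FPKM. Only 3 of the B cell, 2 of the mast cell and 0 of the T and NK cell markers were tested. Cd3d, Cd3e, Cd4 and Cd8a were higher in every PGRN KO library than in any WT library. The NK cell markers Ncr1 and Klrb1c did not rise, and their groups overlapped. Ncr1 was at 0.0776, 0.0878 and 0.0360 FPKM in WT and at 0.0750, 0.0686 and 0.0376 FPKM in PGRN KO. The mast cell sum was mostly Tpsb2 and Cma1. Kit did not rise, at 0.423, 0.395 and 0.218 FPKM in WT and 0.343, 0.130 and 0.156 FPKM in PGRN KO. The 6 fibroblast and mesothelial markers summed to 0.578 to 0.688 and 0.943 to 1.76 FPKM, with Col1a1, Col1a2 and Col3a1 higher in every PGRN KO library than in any WT library, though none of the 6 reached the level for testing. The groups of Krt19, Msln and Upk3b overlapped. Krt19 was at 0.0644, 0.255 and 0.149 FPKM in WT and at 0.156, 0.114 and 0.0936 FPKM in PGRN KO. The 7 markers of large peritoneal macrophages summed to 274 to 292 FPKM in WT compared with 117 to 203 FPKM in PGRN KO. Fn1 made up most of this sum and was lower (mean 263 against 152 FPKM, limma adjusted p 0.0411), Icam2 was higher (3.10 against 5.10 FPKM, adjusted p 0.00914), and Gata6 and Prg4 did not pass (adjusted p 0.367 and 0.457). Against these, Csf1r fell by 0.38 on the log2 scale among the macrophage markers (limma adjusted p 0.0178), less than any of the 5 lower receptors, and Mertk rose by 0.81 (adjusted p 0.00640).

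The tested genes whose log2(FPKM + 1) ran closest to each receptor over the 6 libraries are given as a description, since genotype is shared by all of them. For Clec4n they were Pqlc2 and Pstpip1 (Pearson r 0.996 and 0.993), in which PGRN KO replicate 6 was also high. For Clec4a2 they were Aif1 and Cebpd, and for Clec12a they were Eif4e and Ly6c2. For Clec5a they were Litaf and Dhx38, for Clec4a1 Mta2 and Bdkrb2, and for Clec4a3 Siah2 and Bnip3, with r of 0.996 or more throughout. Between 278 and 566 genes had r over 0.95 with each of the 5 lower receptors. The 10 pairs among these 5 receptors had r of 0.951 to 0.996.

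The calls on the lower receptors did not turn on any 1 library or setting. The 5 genes kept their direction and their call in 86 of 86 combinations of gene and alternative in which they were tested, with a largest adjusted p of 0.0496, for Clec4a3 without WT replicate 1. Clec4n and Clec4d passed as lower in 4 of 18 alternatives each, all of which left out replicate 6, gave it a low weight or removed a trend with gene length. Clec4e passed in none of 18 (adjusted p 0.0586 to 0.524), and Clec7a passed in none (0.557 to 0.973).

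**Figure D5:**
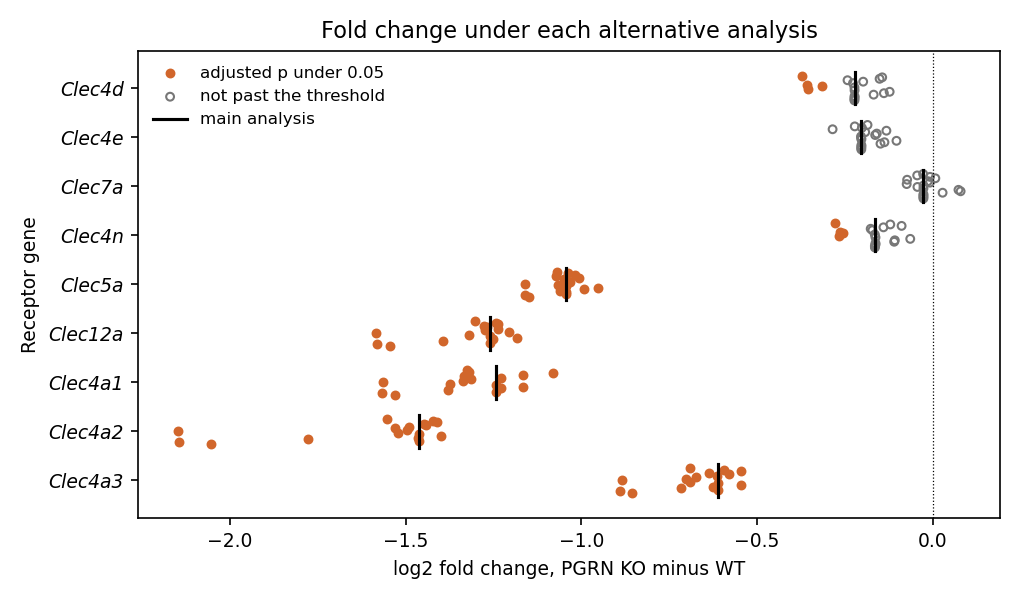
Log2 fold change, PGRN KO minus WT, of each receptor under each alternative analysis (points, filled where the adjusted p was under 0.05) and in the main analysis (black lines). All points of the 5 lower receptors are filled, 4 of 18 are filled for Clec4d and for Clec4n, and none is for Clec4e or Clec7a. The points of Clec7a lie on both sides of 0.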

How the data were processed

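RNA sequencing libraries of macrophages challenged with *C. albicans* (3 WT, 3 PGRN KO) were made with the NEBNext Ultra RNA kit. The values used are FPKM per gene, which the authors computed and deposited as 1 table. The submitters' processing notes name HISAT2 2.0.5, featureCounts 1.5.0-p3, DESeq2 1.20.0 and GRCm38, whereas the study's methods name HISAT and HTSeq. The sources used here do not give the annotation release or the strand setting. FPKM times gene length gave whole multiples of 1 step per library for 100% of values (tolerance 0.001), from which fragments were recovered. The library size behind the FPKM was 0.974, 0.925 and 1.03 times the sum of recovered fragments in WT. In PGRN KO it was 1.05, 1.09 and 0.9995 times that sum. PGRN KO replicates 4 and 5 thus lay above every WT library, and replicate 6 lay within the WT range. A larger divisor lowers FPKM. With fragment totals as library sizes instead, the median change between genotypes rose from -0.031 to 0.051 on the log2 scale. Depth limits low genes most, and error from counting does not cover duplicated reads.

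Because FPKM are not counts, limma 3.58.1 in R 4.3.3 was used in place of the count test of the study, on log2(FPKM + 1) with a mean-variance trend and no covariates, for genes with a mean of at least 1 FPKM. Tests were two-sided, and p-values were adjusted over all 8882 genes by the Benjamini-Hochberg method (threshold 0.05). Scripts were tested on simulated data. Ratios were compared by exact permutation. The table also held gene descriptions, and 54495 of its 54532 genes were found by identifier in GENCODE M21. Of those found, 98.3% had the same position. Promoters came from RefSeq. Named were the 9 receptors, Fcer1g, Tyrobp, Syk and Card9, each gene of the signalling, lectin, target and neighbour lists that passed, the 2 genes closest to Clec4n and to each called receptor, and Grn. The genes and lists were chosen with earlier results of these data known. Marker genes named with values beyond this rule were chosen after their values were seen. Alternatives were other pseudocounts, filters, scalings and weights, limma voom on recovered fragments, a correction for gene length, and leaving out each library.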

Additional observations from a re-analysis of the deposited data

How the results depend on the processing

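Across all genes, 921 were higher and 1230 lower in PGRN KO (42.8% higher among called genes). The TPM scale and fragment totals as library sizes turned this split to 60.6% and 62.9% higher, with 593 and 695 lower genes (911 and 1179 higher). Without a filter 603 were higher and 763 lower, and with a mean of at least 5 FPKM 529 were higher. Sample quality weights, which weighted PGRN KO replicate 6 by 0.0899, gave 1757 and 2468, and the length correction without that replicate 1640 and 2024. With each library left out the counts ran from 331 to 1438 higher and from 382 to 2230 lower, both highest without PGRN KO replicate 6 and lowest without WT replicate 1.

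The 5 lower receptors became 1, Clec5a, with a mean of at least 5 FPKM, because the other 4 were then not tested. The signalling list (2 higher, 6 lower) had 0 higher and 3 lower without a filter, 1 and 3 on the TPM scale, 3 lower with fragment totals and 10 lower with sample quality weights. With each library left out it had 0 to 2 higher and 3 to 8 lower. The other C-type lectins (2 higher, 3 lower) had 4 higher with sample quality weights and with the length correction without replicate 6, 6 lower with the weights and 1 lower with a mean of at least 5 FPKM; leaving out libraries gave 1 to 4 higher and 2 to 4 lower. The target list (5 lower) had 2 without a filter, 8 with the weights and 2 to 7 with each library left out. The log2 fold change of Clec7a turned to 0.028 on the TPM scale, 0.079 with quantile normalization and 0.073 with fragment totals, and lay between -0.073 and 0.0071 when libraries were left out in turn. That of Card9 was 0.039 with fragment totals and lay between -0.17 and 0.075 in the same way. Fcer1g was -0.028 with sample quality weights, -0.013 with the length correction without replicate 6 and -0.040 to 0.21 with each library left out, and Tyrobp ranged from -0.012 to 0.31; both were lowest without replicate 6. The log2 difference of the Clec4n to Clec4e ratio, 0.039, ranged from -0.096 (without PGRN KO replicate 6) to 0.14 and was -0.046 without WT replicate 2. The cause was not tested. No paired analysis was run, because the labels state no pairing. The replicate numbers (1 to 3 and 4 to 6) are running sample numbers and do not show whether libraries were prepared in pairs. Depth limits Clec4a3 most, at 32 to 68 fragments per library.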
